A study of Mus musculus with 76 samples.

Results

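Folliculin (Flcn), its partners Fnip1 and Fnip2, the Rag GTPases Rraga, Rragc and Rragd, the Ragulator subunit Lamtor1 and the transcription factors Tfe3, Tfeb and Mitf were followed in visceral white adipose tissue (WAT) and liver of mice that differ at 1 site of the Fnip2 3′UTR. These 10 genes were chosen by symbol, and each of them is 1 of the 18964 entries of the WAT table and 1 of the 16775 entries of the liver table. All mice were females with free access to food. Fnip2 C/C mice, called C/C here, are homozygous for a knock-in, made with Cas9 in C57BL/6 embryos, that carries a T-to-C change in a seed match of miR-181b-5p and a further G-to-C change that removes the PAM. Fnip2 T/T mice, called T/T, are homozygous for the ancestral T allele. There were 4 C/C and 5 T/T samples of WAT, 5 and 5 samples of liver, and 6 mice that gave both tissues. Every cell of these animals carries the alleles, so that an effect of the edit in 1 cell type cannot be told apart from effects in others, and the age of the mice is not given in the sources used here.

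Folliculin binds Fnip1 or Fnip2 and, at the lysosome, stimulates GTP hydrolysis by RagC and RagD. The Rag GTPases work as heterodimers of RagA or RagB with RagC or RagD, sit on the lysosomal surface through the Ragulator complex, and recruit mTORC1 when amino acids are present. RagC and RagD in their GDP-bound form also hold TFEB, TFE3 and MITF for phosphorylation, which keeps these factors in the cytoplasm and away from the promoters of lysosomal and autophagy genes.

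The site that separates the genotypes is shown because it is the only stretch that differs by design. The mature miR-181 family members from RefSeq (GRCm38.p6) share 1 seed, bases 2 to 8, in capitals.
mmu-miR-181a-5p: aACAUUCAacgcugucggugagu
mmu-miR-181b-5p: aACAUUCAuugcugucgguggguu
mmu-miR-181c-5p: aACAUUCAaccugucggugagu
mmu-miR-181d-5p: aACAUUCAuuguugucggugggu

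The 3′UTR of the longest coding Fnip2 transcript, Fnip2-203 of GENCODE vM21 (7299 nt, 3′UTR of 3689 nt), holds 2 matches to this seed, in capitals and printed as the transcript reads. The first is the engineered site in its ancestral T form, on the minus strand at chr3:79457272-79457297 (GRCm38). It ends 1307 nt before the end of the transcript. The second lies at chr3:79456697-79456722 on the same strand and is the same in both genotypes.
Fnip2 edited site, T allele: ataagtgataTGAATGTataggcaat
Fnip2 other seed match: aagcccccttTGAATGTtaatttttt

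Among the other members, the longest coding transcripts of Rragc, Rragd and Mitf have 1 seed match each in the 3′UTR, and those of Flcn, Fnip1, Rraga, Lamtor1, Tfe3 and Tfeb have 0. The last exon of Fnip2 overlaps Gm17359, which is annotated on the opposite strand. The libraries mark strand, but the strand setting used for counting is not given in the sources used here, so that reads of these genes may not have been kept apart.

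Values are normalized counts, in which the reads of a gene in a library are divided by 1 size factor for that library. QuantSeq libraries read the 3′ end of poly(A) transcripts, so that levels of different genes are not set against each other below. The libraries held 4180209 to 6277644 recovered reads in WAT and 5583041 to 7523200 in liver. Of the 10 members, 9 had a mean of at least 10 normalized counts in each tissue and entered the tests, and Rragd did not in either. The adipocyte markers fit the tissue labels, since their summed level was between 18050 and 54700 CPM (the count scaled to a library total of 1000000 reads) in WAT libraries and between 68.8 and 179.9 in livers, where Adipoq, Plin1, Lep and Retn have no entry, and hepatocyte markers summed to between 100500 and 132800 CPM in livers. In bulk tissue, fewer cells of a type and less RNA per cell cannot be told apart.

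Several measures of tissue make-up and of library content moved with genotype in WAT and stand beside every WAT result that follows. Summed endothelial markers were 481 to 693 CPM in C/C and 730 to 1169 in T/T, lymphocyte markers were 104 to 172 and 174 to 275, and hepatocyte markers, of which Tat, Cps1, Serpina1c and Fgb have no entry in WAT, were 50.1 to 136 and 174 to 705. Ovary markers were high in 1 library, that of the C/C mouse 593, with 1407 CPM. The other C/C mice had 23.2, 27.5 and 28.7 CPM, just above the T/T mice (10.3 to 22.4) and within the range of the livers (10.5 to 34.5). Gene by gene the lists were less uniform than their sums. Of 9 endothelial markers tested, 4 were called lower and 2 higher in C/C, against 2 of 4 hepatocyte and 1 of 3 lymphocyte markers lower and 1 of 5 ovary markers higher. These small counts are to be read against all WAT genes tested, of which 15.1% were called higher and 17.0% lower in C/C. Libraries did not overlap between the genotypes for 26.1% of all WAT genes. Small nucleolar RNAs, a measure of library content and not of a cell type, took 0.0312 to 0.163% of reads in C/C and 0.0110 to 0.0219% in T/T. Adipocyte marker sums overlapped between the genotypes (18050 to 51900 and 29490 to 54700), although 7 of the 10 markers were called lower in C/C. The sums for macrophage, mesothelial, smooth muscle, exocrine pancreas and cholangiocyte markers also overlapped. The part of these differences in the results below was not tested.

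In WAT, the Rag GTPase gene Rraga and the Ragulator gene Lamtor1 were lower in C/C mice, and Tfe3 was higher. These 3 of the 9 members tested passed an adjusted p under 0.05 in limma, a linear model that shares variance between genes, in a tissue where 32.1% of all 12798 genes tested did, 15.1% higher and 17.0% lower in C/C. The share of members called is therefore close to that of all genes. The same 3 members had libraries that did not overlap between the genotypes, against 26.1% of all genes tested. The median log2 difference of the 9 members was -0.27, and that of all genes tested was 0.02.

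**Figure D1:**
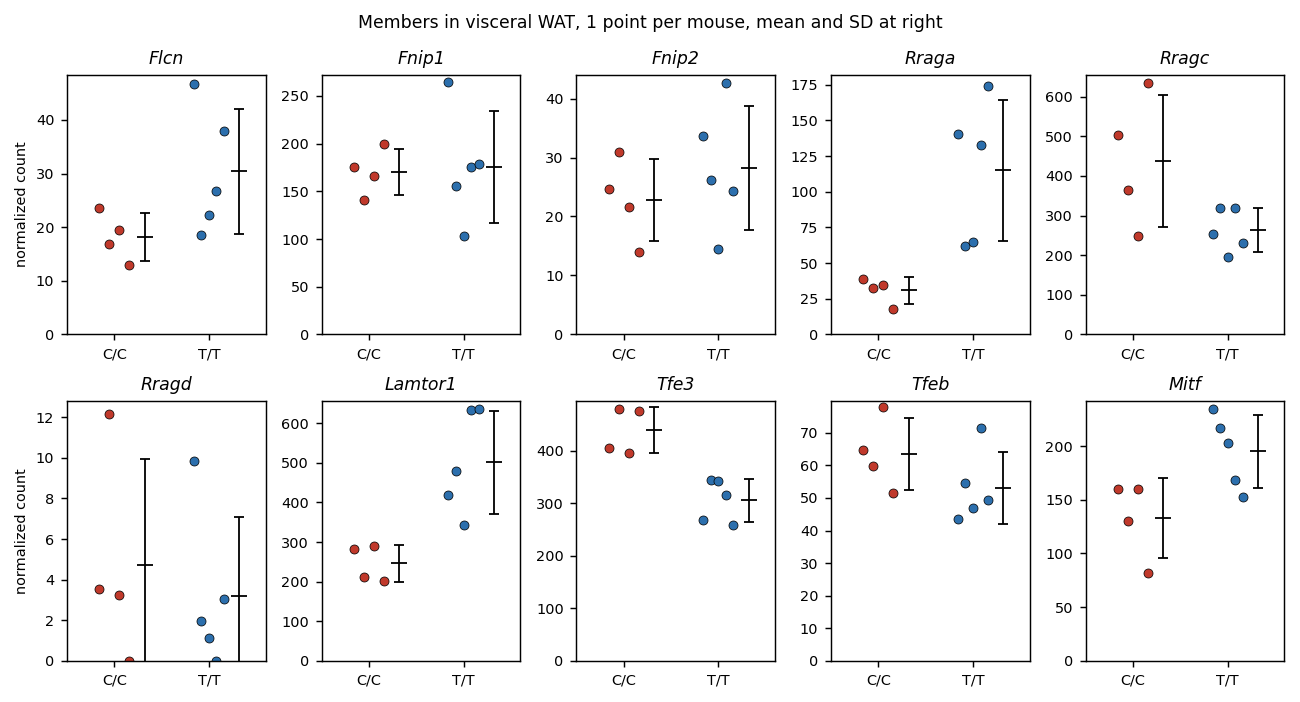
Normalized counts (vertical axes, from 0) of the 10 members in visceral WAT, with 1 point per mouse for 4 C/C (red) and 5 T/T (blue) animals and the mean with its SD at the right of each group. The genotypes separate without overlap for Rraga, Lamtor1 and Tfe3, and overlap for the other 7 genes.

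Rraga encodes RagA, the partner that binds GTP in the active Rag heterodimer. Its normalized counts were 38.8, 32.8, 34.7 and 17.6 in the C/C mice 590, 593, 599 and 638, and 140.3, 62.3, 64.7, 132.9 and 174.3 in the T/T mice 607, 608, 609, 657 and 658. Every C/C library was below every T/T library, and the T/T animals fell into a lower pair, 608 and 609, and 3 higher ones. The mean normalized count was 31.0 ± 9.27 (SD, n = 4) for C/C and 114.9 ± 49.5 (SD, n = 5) for T/T. The log2 difference was -1.80 (standard error 0.35, 95% interval -2.54 to -1.05, limma adjusted p = 0.00273), which is 3.47-fold lower in C/C. An exact two-sided permutation test over the 126 groupings gave p = 0.00794, the smallest it can give in WAT. These values rest on 15 to 230 reads per library.

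Lamtor1 encodes the Ragulator subunit that anchors the complex, and the Rag GTPases with it, in the lysosomal membrane. It had 282, 212, 289 and 201 normalized counts in the C/C mice and 419, 481, 343, 633 and 635 in the T/T mice, in the order given for Rraga. The highest C/C library, 289, was below the lowest T/T library, 343. The mean was 246 ± 46.1 (SD, n = 4) for C/C and 502 ± 129.99 (SD, n = 5) for T/T. The log2 difference was -1.004 (standard error 0.22, 95% interval -1.47 to -0.53, limma adjusted p = 0.00474), a fall of 2.01-fold, and the exact permutation p was 0.0159. Both Rraga and Lamtor1 kept their direction and their call in each alternative that was run and without each mouse in turn.

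Both genes have short transcripts, and the calls in WAT varied with transcript length. The longest coding transcripts are 1618 nt for Rraga, in a single exon, and 1119 nt for Lamtor1, and 15.4% and 6.47% of the tested genes with a known length have shorter ones. Among the genes in the shortest of 4 length classes (204 to 2061 nt), 24.7% were lower in C/C at the threshold and 13.8% were higher. In the longest class (4850 nt or more), the shares were 9.68% lower and 18.6% higher. Lengths were known for 88.5% of the genes tested, and the part of length in the result for either gene was not tested.

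Tfe3, the TFE factor encoded on the X chromosome, moved the other way. Its normalized counts were 406, 479, 396 and 476 in the C/C mice and 268, 344, 342, 315 and 258 in the T/T mice. The lowest C/C library, 396, was above the highest T/T library, 344. With means of 439 ± 44.5 (SD, n = 4) and 305 ± 40.6 (SD, n = 5), the log2 difference was 0.53 (standard error 0.16, 95% interval 0.17 to 0.88, limma adjusted p = 0.0272), or 1.44-fold higher in C/C, with an exact permutation p of 0.00794. The call was close to the threshold. It was lost with equal read totals for all libraries (log2 difference 0.45, limma adjusted p = 0.0639) or quantile normalized (0.43, 0.0517), and without any 1 of the mice 593, 638, 607, 657 or 658 (0.47 to 0.54, limma adjusted p from 0.0501 to 0.0698).

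The other TFE factors did not pass the threshold in WAT. Mitf, known best as the master regulator of melanocytes, had 160.0, 130.1, 160.4 and 82.0 normalized counts in C/C and 235, 217, 203, 169 and 153 in T/T mice. Only the T/T mouse 658 lay within the range of the C/C libraries. The log2 difference was -0.58 (standard error 0.23, 95% interval -1.07 to -0.09, limma adjusted p = 0.0645, exact permutation p = 0.0397). It was called only with a term for mouse number (-0.67, limma adjusted p = 0.0121) and without the C/C mouse 590 (0.0467).

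Tfeb, the factor whose lysosomal targets are listed below, had 51.5 to 78.0 normalized counts in C/C and 43.5 to 71.4 in T/T. The ranges overlapped over most of their width. The log2 difference was 0.26 with a 95% interval from -0.22 to 0.74 (limma adjusted p = 0.391).

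Rragc encodes RagC, the Rag on which folliculin acts. It had 502, 364, 249 and 634 normalized counts in C/C and 253, 320, 194, 318 and 230 in T/T mice. The C/C mouse 599 lay among the T/T libraries and the other 3 above all of them. The log2 difference was 0.67 (standard error 0.26, 95% interval 0.11 to 1.23, limma adjusted p = 0.0627). It was called without mouse 599 (0.91, limma adjusted p = 0.0177), with DESeq2 (0.73, 0.0283) and with a term for mouse number (0.73, 0.0420), and not in the other alternatives. Rragd, the paralog of Rragc, had 0 to 13 reads in WAT and 3 to 12 in liver, and no genotype difference is reported for it.

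The folliculin complex itself was not called in WAT. Flcn had 23.5, 16.8, 19.5 and 12.9 normalized counts in C/C and 46.8, 18.5, 22.3, 26.8 and 37.9 in T/T mice, from 11 to 57 reads per library. Its log2 difference was -0.66 with a 95% interval from -1.38 to 0.05 (limma adjusted p = 0.138, exact permutation p = 0.0794). Fnip1 lay between 141 and 199 normalized counts in C/C and between 102.7 and 264 in T/T. The T/T libraries of mice 607 and 609 were the highest and the lowest of all 9. The log2 difference of Fnip1 was 0.01, with a 95% interval from -0.50 to 0.53. Fnip2, the edited gene, had 14.1 to 30.9 normalized counts in C/C and 14.5 to 42.6 in T/T, with a 95% interval of the log2 difference from -1.01 to 0.48, and the counts do not read the edited base.

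In liver, no member passed the threshold, and nor did any of the 11710 genes tested (0.0%) with limma, edgeR or DESeq2. At an unadjusted p under 0.05, limma, edgeR and DESeq2 gave 231, 249 and 225 genes. Of the 9 members tested, Fnip2 was the only one with an unadjusted p under 0.05, where 1.97% of all genes were. No member had libraries without overlap, against 0.248% of all genes.

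**Figure D2:**
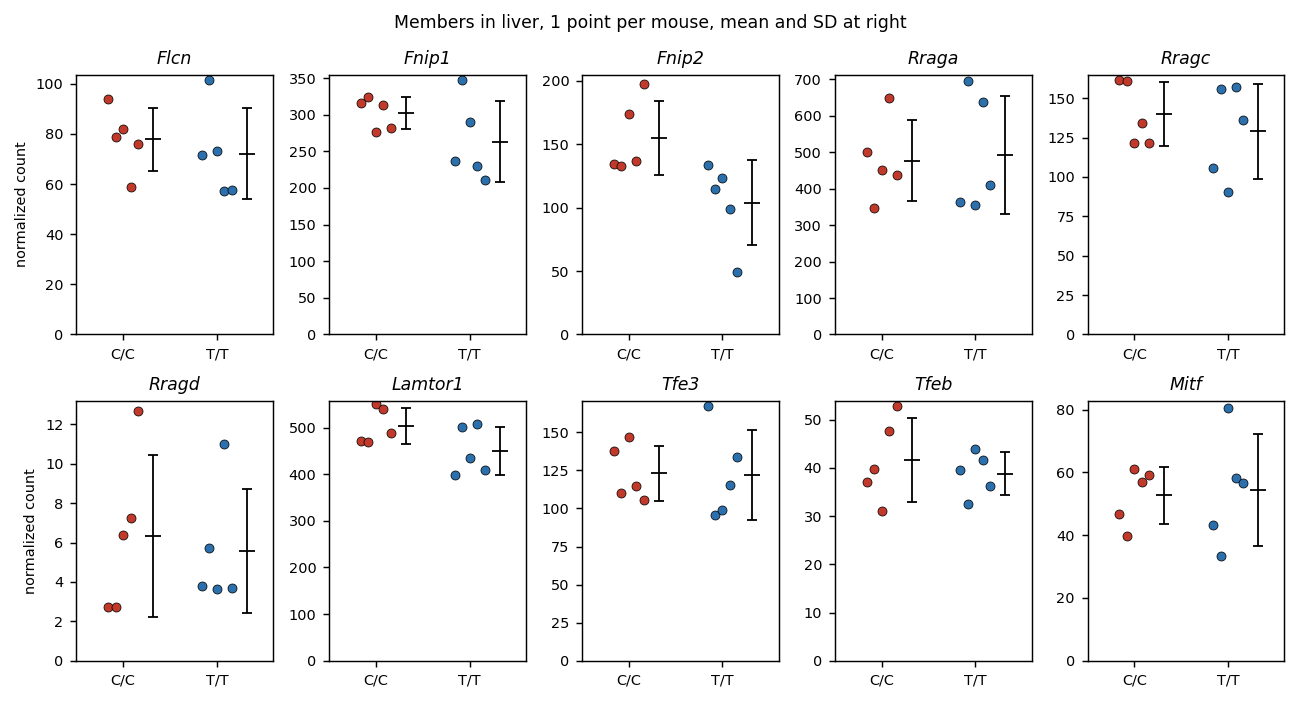
Normalized counts (vertical axes, from 0) of the 10 members in liver, with 1 point per mouse for 5 C/C (red) and 5 T/T (blue) animals and the mean with its SD at the right of each group. The genotypes overlap for every gene, and for Fnip2 the 5 C/C livers lie between 133.0 and 197 and the 5 T/T livers between 49.2 and 134.0.

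Fnip2 had 134.4, 133.0, 174, 137 and 197 normalized counts in the livers of the C/C mice 590, 591, 592, 638 and 639, and 134.0, 114.7, 123, 98.8 and 49.2 in those of the T/T mice 607, 608, 657, 658 and 659. The genotypes overlapped by 1 library, since the liver of mouse 607 lay just above the lowest C/C liver. The log2 difference was 0.63 (standard error 0.23, 95% interval 0.14 to 1.122, unadjusted limma p = 0.0148, limma adjusted p = 1.00), and the exact permutation p of this gene alone was 0.0159. Without the lowest liver, that of mouse 659, the difference was 0.39.

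The partners of Fnip2 had smaller differences. Fnip1 had 317, 325, 277, 314 and 282 normalized counts in C/C livers and 237, 348, 290.2, 229 and 212 in T/T livers, in the order given for Fnip2. The C/C livers lay within a narrow range, and the T/T livers spread on both sides of it. Its log2 difference was 0.22 (95% interval -0.07 to 0.51). Flcn had 59.0 to 93.8 normalized counts in C/C and 57.1 to 101.3 in T/T livers, with a log2 difference of 0.13 (95% interval -0.25 to 0.50).

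The 95% intervals of the Rag, Ragulator and TFE genes all included 0 in liver. Rraga, lower in C/C WAT, had 346 to 648 normalized counts in C/C and 356 to 695 in T/T livers, a log2 difference of -0.02 (95% interval -0.46 to 0.43). Lamtor1 had 469.7 to 549.7 and 398 to 508, a log2 difference of 0.17 (95% interval -0.08 to 0.41). The log2 differences were 0.14 for Rragc, 0.08 for Tfeb, 0.03 for Tfe3 and -0.0016 for Mitf, and the widest interval of the 4, that of Mitf, ran from -0.46 to 0.45.

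**Figure D3:**
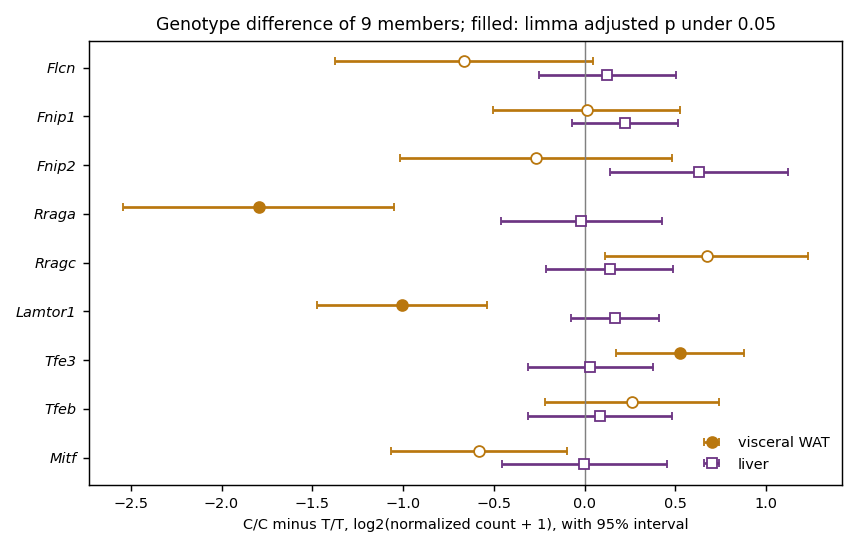
Log2 difference of C/C minus T/T mice (horizontal axis, log2 of the normalized count + 1) of the 9 members tested, with 95% intervals as bars, in visceral WAT (orange circles) and liver (purple squares). Filled symbols mark a limma adjusted p under 0.05, which Rraga, Lamtor1 and Tfe3 reach in WAT and no member reaches in liver.

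Whether the effect of the genotype differed between the tissues was tested with an interaction contrast over the 10404 genes kept in both tables, of which 29.2% passed. Rraga and Lamtor1 passed. The difference for Rraga in WAT minus that in liver was -1.78 on the log2 scale (standard error 0.42, limma adjusted p = 0.00371), and that for Lamtor1 was -1.17 (standard error 0.24, limma adjusted p = 0.00126). Tfe3, called in WAT, did not pass (0.50, limma adjusted p = 0.108), so that its effect is not shown to differ between the tissues. Flcn (-0.79, 0.0949), Fnip2 (-0.90, 0.102), Mitf (-0.58, 0.183) and Rragc (0.54, 0.208) did not pass either. Since 6 mice gave both tissues, the contrast was also fitted with the mouse as a replicate block, and Rraga and Lamtor1 passed and the other 7 members did not.

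The levels of the members in the 2 tissues are given as a description, in CPM over the genes listed in both tables, since the tables were normalized separately. Tfe3, Mitf, Tfeb and Rragc were higher in WAT, in all 6 mice that gave both tissues and without overlap over all 19 libraries. Tfe3 had 55.3 to 113 CPM in WAT and 16.2 to 25.9 in liver, a ratio of means of 3.97. The ratio was 4.23 for Mitf, 3.34 for Rragc and 1.93 for Tfeb. All 3 TFE genes thus had higher levels in adipose tissue than in liver.

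Rraga, Fnip2 and Flcn had higher mean levels in liver. Rraga had 3.65 to 37.4 CPM in WAT and 56.2 to 119.8 in liver, 4.57 times as much in the mean. Its groups were ordered C/C WAT (6.63 ± 1.99, SD, n = 4), T/T WAT (26.2 ± 11.6, n = 5), and then both groups of livers (78.1 ± 17.2 and 81.8 ± 28.5, n = 5 each), which do not differ beyond their spread. Fnip2 was higher in liver in 6 of 6 mice, 3.66 times in the mean, with overlap of the lowest liver (8.53) and the highest WAT library (10.1). Flcn was higher in liver in 5 of the 6 mice, or in all 6 by the deposited normalized counts, and 2.22 times in the mean CPM. Fnip1, Lamtor1 and Rragd had ratios of liver over WAT of 1.21, 0.91 and 1.09, with libraries of the tissues interleaved. The ratio of Lamtor1 joins genotypes with opposite orders. It had 52.4 ± 8.44 CPM in C/C WAT and 82.8 ± 6.77 in C/C liver (SD, n = 4 and 5). In T/T mice it had 113.7 ± 30.6 in WAT and 74.6 ± 9.95 in liver (SD, n = 5 each). Every C/C WAT library of Lamtor1 (41.9 to 61.3) was below every liver (61.8 or more). The ratio of Rragd rests on few reads, and its log2 value ran from -1.95 to 3.35 over the 6 mice.

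**Figure D4:**
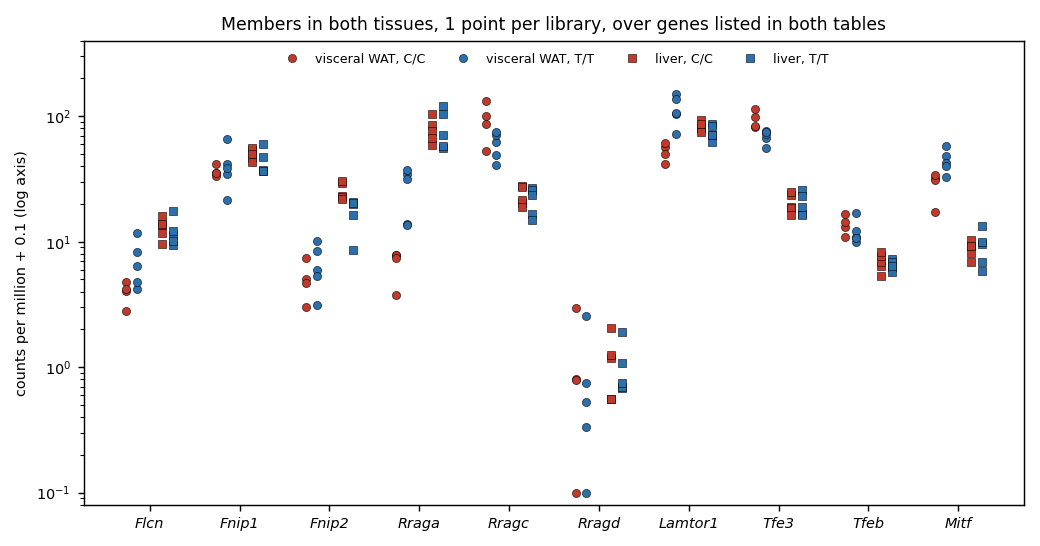
CPM + 0.1 (vertical log axis) of the 10 members in each of 19 libraries, over the genes listed in both tables, with circles for visceral WAT, squares for liver, red for C/C and blue for T/T. Rragc, Tfe3, Tfeb and Mitf are higher in every WAT library than in any liver, Rraga is lower, and the points at 0.1 are WAT libraries with 0 reads of Rragd.

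Across the 10 livers, the log2 levels of Fnip1 and Flcn had the highest correlation of the 3 pairs of folliculin complex genes, and none of the 3 relations passed after adjustment. Pearson's r of Fnip1 and Flcn was 0.70 (permutation p = 0.0245, adjusted 0.0734) and Spearman's rho was 0.75 (permutation p = 0.0173, adjusted 0.0519). Without the 2 livers farthest from the median of Fnip1, those of mice 659 and 658, r was 0.41. Fnip2 gave r of 0.55 with Fnip1 (permutation p = 0.0972, adjusted 0.146) and 0.47 with Flcn (permutation p = 0.177, adjusted 0.177). Spearman's rho was 0.21 (permutation p = 0.558, adjusted 0.558) and 0.36 (permutation p = 0.312, adjusted 0.468), and without the 2 farthest livers r was 0.18 and 0.26. Centred on the genotype means, r was 0.35, 0.42 and 0.70 for Fnip2 with Fnip1, Fnip2 with Flcn, and Fnip1 with Flcn.

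The genes whose pattern over the 19 libraries, centred on the mean of each tissue, was most like that of a folliculin complex gene were named among the 10404 genes kept in both tables. They were Mtr (Pearson's r 0.83), Lrrc28 (0.78) and Tmem131l (0.73) for Fnip2, Cxcl13 (0.83), Rbbp4 (0.81) and Galm (0.80) for Fnip1, and Klhl24 (0.88), Rab9 (0.87) and Rsbn1 (0.86) for Flcn. Within WAT alone these r were 0.69 to 0.95, and within liver alone 0.54 to 0.84, the lowest being that of Rab9 with Flcn. The values were not centred on genotype, so that genotype differences stay in them. These libraries share depth, mice and tissue, and the values are descriptions.

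The other genes of the pathway were followed in WAT by lists, whose counts are to be read against the 32.1% of all WAT genes called (15.1% higher and 17.0% lower in C/C). Among 5 tested genes for further Rag and Ragulator proteins, 1 was called, Lamtor2, with mean normalized counts of 73.0 ± 44.1 for C/C (SD, n = 4) and 131 ± 18.9 for T/T (SD, n = 5) and a log2 difference of -1.05 (limma adjusted p = 0.0419). The amino acid transporter Slc38a9 (0.27) and the Ragulator subunit Lamtor4 (-0.43) had adjusted limma p-values of 0.255 and 0.219. The call of Lamtor2 was lost without any 1 of 8 of the 9 mice.

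Of 11 genes for GATOR1, which inactivates RagA, GATOR2, which opposes it, and KICSTOR, 2 were called higher in C/C and 2 lower, a share close to the 32.1% of all genes. The GATOR1 subunit Nprl2 (258 ± 33.1 against 157 ± 24.7 normalized counts, log2 difference 0.71, limma adjusted p = 0.00900) and the GATOR2 subunit Mios (131 ± 46.0 against 56.8 ± 11.1, 1.14, 0.00599) were higher. The GATOR2 subunits Wdr24 and Sec13, the second of which also belongs to the COPII coat and the nuclear pore, were lower. Sec13 had 11.7 ± 2.93 normalized counts in C/C and 63.7 ± 37.2 in T/T, a log2 difference of -2.18 (limma adjusted p = 0.00236). Wdr24 had 4.54 ± 1.61 and 24.2 ± 5.12, a log2 difference of -2.21 (limma adjusted p = 0.00155). Its C/C libraries held only 2.34 to 5.88 normalized counts, so that it passed the minimum mean of 10 through its T/T libraries alone. The size of the Wdr24 difference is therefore uncertain, and it ran from -2.4 to -1.23 over the alternatives that tested this gene. The called GATOR2 genes lay on both sides of 0. Among all 11 genes tested, libraries did not overlap for the 4 called genes and for Depdc5, which was not called (limma adjusted p = 0.0726). Of all WAT genes tested, 26.1% had libraries without overlap.

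The genes upstream and beside the Rag GTPases were split as well. Rheb, the GTPase that activates mTORC1 on the lysosome, had 52.2 ± 22.0 normalized counts in C/C and 137 ± 17.4 in T/T (log2 difference -1.49, limma adjusted p = 0.00326), without overlap. Of the TSC complex that inhibits Rheb, Tbc1d7 was lower (-1.11, limma adjusted p = 0.0194) and Tsc2 higher (0.63, 0.0313) in C/C. Among 5 genes for amino acid sensors, the leucyl-tRNA synthetase Lars was called higher (0.61, 0.0356), and the leucine sensor Sesn2 (-0.84, 0.0608) and Castor2 (0.36, 0.170) were not called. Of the C9orf72, Smcr8 and Wdr41 genes, whose proteins form a complex related in fold to folliculin and its partners, C9orf72 was called lower (-0.84, limma adjusted p = 0.0453), and Smcr8 (0.14) and Wdr41 (-0.03) were not called. With 1 mouse left out, the call was lost in 6 of 9 cases for Lars (limma adjusted p up to 0.0965), 6 for C9orf72 (up to 0.112), 5 for Tsc2 (up to 0.0923) and 1 for Tbc1d7 (without mouse 638, 0.0503).

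Of 13 tested genes for folliculin partners and regulators of the TFE factors, 3 were called higher and 4 lower, against 15.1% and 17.0% of all genes. The chaperones Hsp90aa1 and Hsp90ab1, to which the Fnip proteins bind as co-chaperones, were higher in C/C by 0.88 and 1.13 on the log2 scale (limma adjusted p = 0.0106 and 0.00729). Hsp90ab1 had 28312 ± 7634 normalized counts in C/C and 12735 ± 2682 in T/T. The calcineurin genes, of the phosphatase that acts on TFEB, did not share 1 direction. Ppp3r1 and Ppp3cb were called lower, but Ppp3cb (limma adjusted p = 0.0423) lost its call without any 1 of the 9 mice (0.0514 to 0.107). Ppp3ca had 1433 ± 199 normalized counts in C/C and 1061 ± 116 in T/T, a log2 difference of 0.43, and was not called (limma adjusted p = 0.0744). Ppp3r1 fell most steeply of these 13, from 175.4 ± 21.3 normalized counts in T/T to 56.8 ± 6.85 in C/C (log2 difference -1.61, limma adjusted p = 0.000366). The 14-3-3 genes, whose proteins hold phosphorylated TFE factors in the cytoplasm, went both ways, with Ywhaz higher (0.92, limma adjusted p = 0.00793) and Ywhae (-0.92, 0.00334) and Ywhaq (-0.90, 0.00810) lower.

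The lysosomal and autophagy genes known as targets of TFEB and TFE3 did not move in 1 direction. Of 36 tested, 9 were called higher and 8 lower in C/C, where 15.1% and 17.0% of all genes were, and the median log2 difference was 0.15, against 0.02 for all genes tested. Those called higher included Asah1, Hexa, Ctsf, Atp6ap1, Mcoln1, Pip4p1 and Ctsa. Mcoln1, the lysosomal calcium channel, had 248 ± 28.1 normalized counts in C/C and 132.5 ± 19.4 in T/T (0.90, limma adjusted p = 0.00249). Hexa, a subunit of the lysosomal enzyme β-hexosaminidase, had 964 ± 91.9 and 491 ± 69.1 (0.98, 0.00157).

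Those called lower included Clcn7, Tpp1, Atp6v1b2, Atp6v1h, Uvrag, Sqstm1 and Atp6v0d1. Tpp1, a lysosomal peptidase, had 59.9 ± 27.0 normalized counts in C/C and 264 ± 71.2 in T/T, a log2 difference of -2.19 (limma adjusted p = 0.000732). Clcn7, a lysosomal chloride and proton exchanger, had 19.7 ± 8.99 and 90.6 ± 17.7, a log2 difference of -2.27 (limma adjusted p = 0.00103). Of the proton pump genes, Atp6ap1 was higher (0.91) and Atp6v1b2 (-1.80), Atp6v1h (-0.91) and Atp6v0d1 (-0.63) were lower. The autophagy receptor gene Sqstm1 was lower in C/C (-0.69, limma adjusted p = 0.0226). With 1 mouse left out, the calls were lost in 8 of 9 cases for Atp6v0d1, 7 for Pip4p1, 6 for Ctsa, 5 for Atp6v1h and 2 for Sqstm1 (limma adjusted p up to 0.123). In liver, 0 genes of any of these lists passed the threshold, which held for all genes there.

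**Figure D5:**
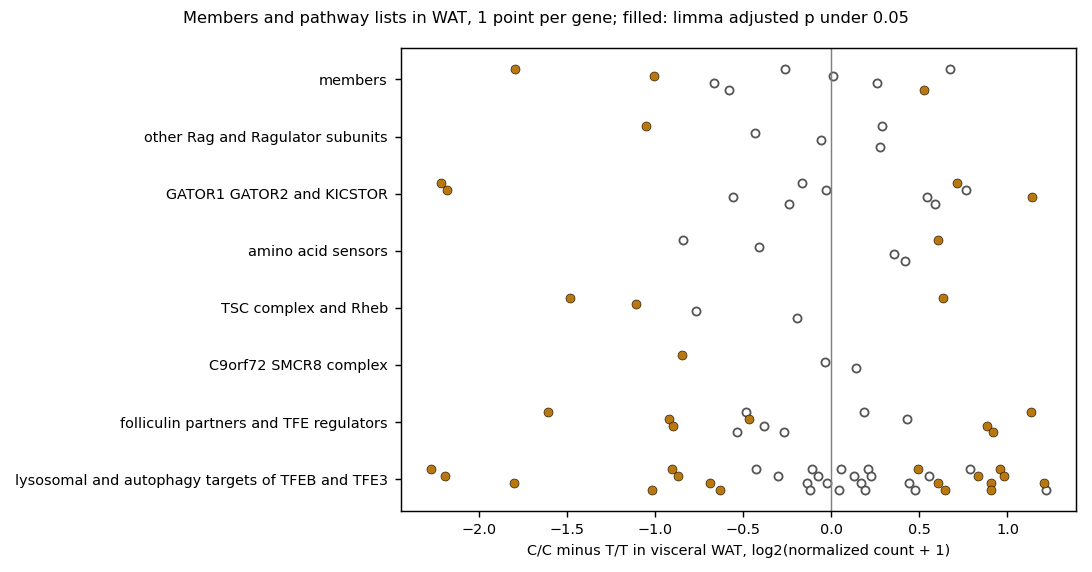
Log2 difference of C/C minus T/T mice in visceral WAT (horizontal axis, log2 of the normalized count + 1), with 1 point per tested gene, for the members and the pathway lists. Filled points have a limma adjusted p under 0.05 and lie on both sides of 0 in the members, the GATOR and KICSTOR genes, the TSC and Rheb genes, the partners and regulators, and the lysosomal targets.

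The letters CACGTG, the core of the E-box that TFE factors bind, were searched in the RefSeq promoters of the members, from 250 bases before to 50 bases after the start of each gene. These letters read the same on both strands, and 7.15% of all 32851 promoters hold them. They occur once in the promoters of Fnip1, Rragc and Lamtor1, all on the plus strand, at chr11:54438095-54438118, chr4:123917312-123917335 and chr7:101905760-101905783 (GRCm38.p6), and not in those of the other 7 members. Of the 3 genes, Lamtor1 was called in WAT and Fnip1 and Rragc were not. The windows are shown with the motif in capitals.
Fnip1 promoter window: gtttgctgcCACGTGatacggctc
Rragc promoter window: gattccgggCACGTGatagtacca
Lamtor1 promoter window: ccttcctatCACGTGccgcgggtc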

How the data were processed

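Liver and visceral WAT libraries were made with the QuantSeq 3′ mRNA-Seq FWD kit from 250 ng (liver) or 500 ng (WAT) of RNA, and 76 database entries, 4 per mouse and tissue, correspond to 19 libraries, grouped by the genotype in their labels. The authors deposited 1 table per tissue of normalized counts, a signal in which gene counts are divided by a size factor per library. The submitters' processing notes name FastQC 0.11.9, HISAT2, SAMtools 1.12, HTSeq, DESeq2 and the GRCm39 build, without their order or settings. Positions given here are of GRCm38, the build of the annotation used, and none was converted. Whole reads were recovered for 100% of the values (tolerance 1e-06). A WAT table column that matches no label (1 column) was left out.

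Genotypes were compared with limma 3.58.1 (trend and robust options, R 4.3.3) on log2(normalized count + 1), for genes with a mean of at least 10, with Benjamini-Hochberg adjustment over all genes of a tissue and a threshold of 0.05. Log2 differences are Fnip2 C/C minus Fnip2 T/T and understate changes of low genes. The procedure was tested on simulated counts. Single genes were also compared by exact two-sided permutation tests, which cannot go below 0.00794 in either tissue. edgeR 4.0.16 and DESeq2 1.42.0 on recovered reads, other filters, pseudocounts and scalings, library weights, a term for mouse number (609 and below against 638 and above) and leaving out each mouse were alternatives. Relations over 10 livers used 100000 random permutations, and those with 1 liver left out all orderings of the other 9. The genotypes share no mice, so genotype tests are unpaired. The consensus correlation of libraries from the same mouse was -0.114. p-values measure the spread between these mice only. The members and lists were chosen with earlier results of these data known. By the rule for named genes, the text names each member, the called genes of each list and up to 3 genes with its lowest limma p in WAT, and the 3 genes most like Fnip2, Fnip1 and Flcn. Some called genes of the lists are counted but not reported by name here. Depdc5 and Ppp3ca are named outside this rule.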

Additional observations from a re-analysis of the deposited data

Results flagged for a closer look

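Rraga and Lamtor1 were flagged because the genotype difference was not the same in WAT and liver by the interaction test, with values of -1.78 and -1.17 on the log2 scale (limma adjusted p = 0.00371 and 0.00126). Of 40 groups of member values, 1 held a stray library by Dixon's test, where chance flags about 1 in 20. The liver of the T/T mouse 658 had 10.98 normalized counts of Rragd, and the next highest had 5.74 (gap of 0.716 of the range). It corresponds to 10 reads.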

How the results depend on the processing

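The number of genes called in WAT, 4111, was 3196 with a minimum mean of 50, 3892 with equal totals, 4802 with library weights, 4144 with edgeR and 4722 with DESeq2, and between 3010 (without the T/T mouse 657) and 4273 (without the C/C mouse 590) with each mouse left out. In liver it was 0 in every alternative. The interaction count, 3033, was 2753 with the mouse as a replicate block and 2157 to 3355 without each mouse, and the block changed no call among the members. Without mouse 608, Flcn passed the interaction test (-1.07, limma adjusted p = 0.0229), and so did Fnip2 without mouse 609 (-1.11, 0.0299). Without the C/C mouse 593, the library with ovary genes, 3761 WAT genes were called, Rraga and Lamtor1 among them. The sign of values never called changed for Fnip1 in WAT (-0.021 with quantile normalization, -0.065 with equal totals, -0.14 with library weights, -0.075 with edgeR, -0.046 with DESeq2, and -0.16 to 0.17 without each mouse). In liver it changed for Mitf (0.0047 with quantile normalization, 0.023 with library weights, 0.10 with a term for mouse number, -0.16 to 0.15 without each mouse), for Tfe3 (-0.0066 with that term, -0.048 to 0.15 without each mouse), for Rraga (-0.14 to 0.12) and for Tfeb (-0.0063 to 0.18). The r of Fnip1 and Flcn was 0.60 to 0.90 without each liver, and passed without mouse 638 (0.90, exact permutation p adjusted 0.00323). Those of Fnip2 with Fnip1 and with Flcn were 0.09 to 0.65 and 0.20 to 0.61. Of the 34 other pathway genes called in WAT, 21 were called in each alternative that tested them and 28 under both other scalings. The other 13, among them Lamtor2, Lars, Tsc2, Tbc1d7, C9orf72, Ppp3cb, Sqstm1, Atp6v0d1, Atp6v1h, Ctsa and Pip4p1, lost the call without at least 1 mouse (Ppp3cb without any 1 of the 9), with limma adjusted p up to 0.123. The causes were not tested. Depth limits Rragd, Flcn and Fnip2 in WAT most, where libraries held 0 to 57 reads of these genes.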
